A study of Mus musculus with 4 samples.

Results

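Genes of the triad, the neuromuscular junction and the dystrophin complex are described here by the PHF2 peaks called in and around them in mouse gastrocnemius, a calf muscle. The 42 genes were listed by name, out of 21887 protein-coding genes that RefSeq annotates on GRCm38.p6, the assembly that mm10 represents, and all 42 were found there. A peak was counted for a gene if it overlapped the gene or the 5 kb on either side by at least 1 bp. PHF2 is a chromatin protein with a PHD finger, a domain that reads methylated histone H3 at active promoters, and a JmjC demethylase domain. The assay was CUT&RUN, in which an antibody tethers a nuclease that cuts out the DNA around its target. Muscle came from 4-week-old male C57BL/6 mice. The group named Ctrl carried Phf2 flox/flox and was Acta1 Cre-, and the group named KO carried Phf2 flox/flox and was Acta1 Cre+, so floxed alleles are shared by all groups. Acta1-driven Cre is active in muscle fibres, and other cells of the muscle are expected to keep Phf2 in KO mice. Each genotype was assayed once with a PHF2 antibody and once with IgG, antibody of no defined target that measures background cutting, giving 4 groups with 1 library apiece. How many animals went into a library is not given in the sources used here.

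With 1 library in each group no test between genotypes was possible, and every comparison describes these libraries. The PHF2 antibody gave 1621 peaks in Ctrl and 161 in KO, and IgG gave 77 and 152. Read totals are unknown. In a bulk muscle sample fewer nuclei of a type and less PHF2 per nucleus cannot be told apart, and peak lists check neither the tissue nor the genotype labels. Intervals are 95% intervals that cover counting error only. Fold enrichment is the authors' ratio at the peak summit over the local background of the peak caller. Tags are the sequenced fragments piled up at that summit, recovered as whole numbers from the authors' fold and p.

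Contraction of a muscle fibre starts at the neuromuscular junction, where acetylcholine opens a receptor and depolarises the membrane. The triad, a contact of the transverse tubule with the sarcoplasmic reticulum, then converts this signal into calcium release: a voltage-gated calcium channel in the tubule opens the ryanodine receptor of the reticulum. Junctophilins hold the membranes together, triadin and calsequestrin organise the calcium store, and SERCA pumps refill it. The dystrophin complex ties the cytoskeleton of the fibre through its membrane to laminin outside, and its loss causes muscular dystrophy.

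In Ctrl muscle 9 of the 42 genes (21.4%, Wilson interval 11.7 to 35.9) had at least 1 PHF2 peak, against 7.38% of all protein-coding genes. They were the calcium store genes Casq1 and Trdn, the junctophilin genes Jph1 and Jph2, Cacnb1 and Pvalb, the chloride channel gene Clcn1, the utrophin gene Utrn and the dystroglycan gene Dag1. By role, these were 6 of 15 triad and calcium handling genes, 1 of 3 other membrane channels, 1 of 8 junction genes and 1 of 16 genes of the dystrophin complex and fibre membrane. No KO PHF2, Ctrl IgG or KO IgG peak fell in the window of any of the 42, against 0.713%, 0.064% and 0.155% of all protein-coding genes. The members were chosen with earlier results of these data known, so these counts are descriptions and no list was tested.

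**Figure D1:**
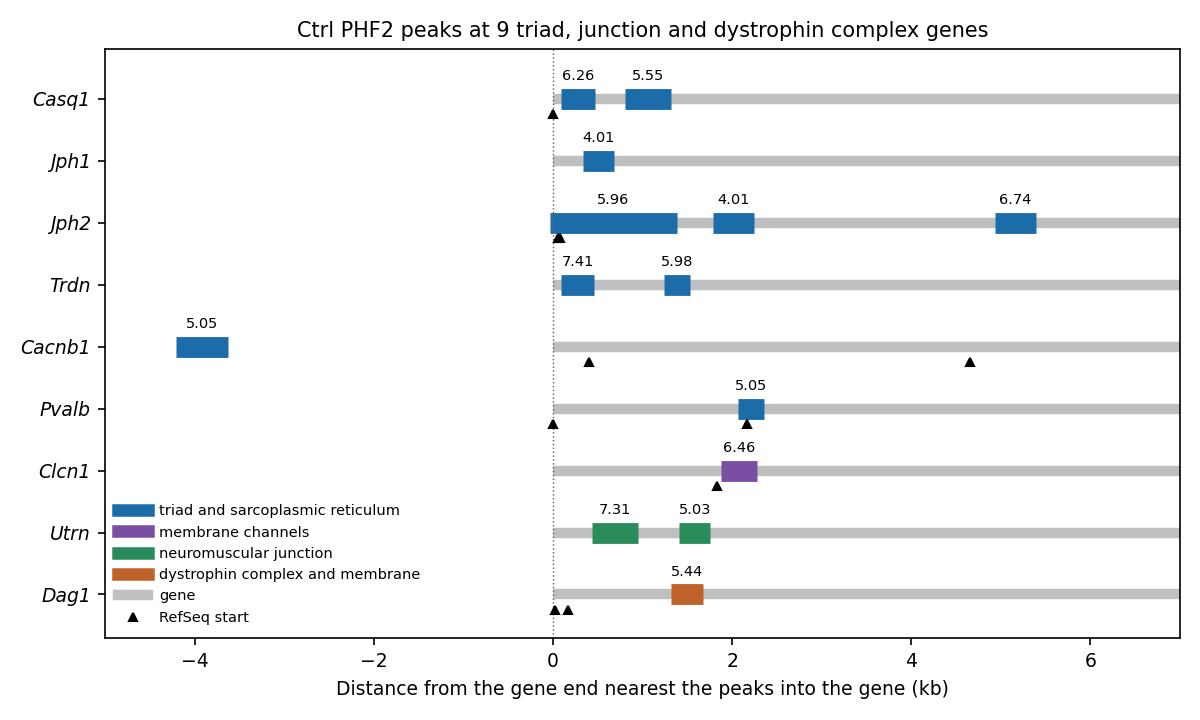
Position of the 14 Ctrl PHF2 peaks (coloured bars, by role; the number above each is its fold enrichment) along 9 genes, with distance in kb from the gene end nearest the peaks and positive values inside the gene. Triangles are RefSeq starts; 13 of the 14 peaks have their summit inside the gene, close to 1 end, and the peak counted for Cacnb1 lies outside it.

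Jph2 (Gene ID 59091, chromosome 2, 163336242 to 163398049, minus strand) encodes the junctophilin that also serves heart muscle, and held 3 Ctrl PHF2 peaks, the most of the 42 genes. The peak over its start ran from 163396667 to 163398085. It was 1419 bp wide, wider than 93.0% of the Ctrl PHF2 list, with a fold enrichment of 5.96 and 26 summit tags (exact Poisson interval 17.0 to 38.1), the most at any of the 42 genes. A second peak at 163395807 to 163396260 had a fold of 4.01 and 17 tags (9.90 to 27.2). The third, at 163392657 to 163393113, lay 5144 bp inside the gene at its summit, with a fold of 6.74 and 14 tags (7.65 to 23.5). It was the deepest of the 13 peaks inside a gene. Jph1 (Gene ID 57339, chromosome 1, 16942104 to 17097922), the main junctophilin gene of skeletal muscle, had 1 peak at 17097243 to 17097583, near its upper end. Its fold was 4.01 with 17 tags (9.90 to 27.2), so it shared the lowest fold of the 14 peaks with the second Jph2 peak and ranked 1594 of 1621 in the list.

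Casq1 and Trdn, both genes of the calcium store, each had a peak at an end. Casq1 (Gene ID 12372, chromosome 1, 172209894 to 172219895, minus strand) encodes calsequestrin 1, the calcium-binding protein of the reticulum in fast fibres. A peak at 172219421 to 172219809, with its summit 204 bp inside the start, had a fold of 6.26 and 25 tags (16.2 to 36.9). The local background there was 1.75 on the caller's scaled pileup, against 0.361 at Trdn, so that its fold was below that of Trdn although it had more tags. A second peak at 172218573 to 172219087 had a fold of 5.55 and 14 tags (7.65 to 23.5). Trdn (Gene ID 76757, chromosome 10, 33083483 to 33476709) encodes triadin, which anchors calsequestrin to the ryanodine receptor. Its peak at 33083569 to 33083946, 244 bp inside the lower end of the gene at the summit, had a fold of 7.41 on 14 tags (7.65 to 23.5). This was the highest fold of the 14, at rank 415 of 1621. A smaller peak at 33084722 to 33085018 had a fold of 5.98 on 11 tags (5.49 to 19.7). Over the 393227 bp of Trdn no further peak was called.

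Pvalb and Clcn1 carried their peak at a start inside the annotated gene. Pvalb (Gene ID 19293, chromosome 15, 78191112 to 78206400, minus strand) encodes parvalbumin, the calcium buffer of fast fibres. RefSeq places starts at 78206400 and 78204237, and the peak at 78204044 to 78204335 had its summit 10 bp from the inner one, with a fold of 5.05 and 14 tags (7.65 to 23.5). No Ctrl PHF2 peak lay within 1 kb of the outer start. Clcn1 (Gene ID 12723, chromosome 6, 42284851 to 42315764, plus strand) encodes the chloride channel that steadies the resting membrane. Its peak at 42286724 to 42287129 had a summit 239 bp past a RefSeq start at 42286685 and 2073 bp inside the gene, with a fold of 6.46 and 12 tags (6.20 to 21.0). Which transcripts these starts serve in this muscle was not analysed here.

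The bases before 5 of these starts are shown to compare starts that carry a nearby peak with one that does not. They are from RefSeq promoters of GRCm38.p6, written 5′ to 3′ on the strand of the gene and ending at the base before the start, or for Jph2 at the base before the annotated gene. Capitals mark bases under a Ctrl PHF2 peak.
Casq1, chr1:172219896-172220145, minus strand: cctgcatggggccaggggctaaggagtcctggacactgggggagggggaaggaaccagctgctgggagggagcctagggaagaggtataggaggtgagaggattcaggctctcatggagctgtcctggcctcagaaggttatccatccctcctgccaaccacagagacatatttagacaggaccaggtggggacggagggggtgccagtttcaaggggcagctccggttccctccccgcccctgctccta
Jph2, chr2:163398050-163398243, minus strand: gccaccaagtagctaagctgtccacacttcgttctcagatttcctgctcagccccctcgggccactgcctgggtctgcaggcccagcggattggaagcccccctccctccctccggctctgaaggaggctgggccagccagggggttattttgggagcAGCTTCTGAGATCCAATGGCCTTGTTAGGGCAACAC
Clcn1, chr6:42286435-42286684, plus strand: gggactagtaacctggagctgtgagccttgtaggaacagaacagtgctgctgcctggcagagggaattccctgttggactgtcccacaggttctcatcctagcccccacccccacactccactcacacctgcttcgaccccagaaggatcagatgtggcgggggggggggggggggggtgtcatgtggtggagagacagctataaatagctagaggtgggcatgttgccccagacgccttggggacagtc
Pvalb outer start, chr15:78206401-78206650, minus strand: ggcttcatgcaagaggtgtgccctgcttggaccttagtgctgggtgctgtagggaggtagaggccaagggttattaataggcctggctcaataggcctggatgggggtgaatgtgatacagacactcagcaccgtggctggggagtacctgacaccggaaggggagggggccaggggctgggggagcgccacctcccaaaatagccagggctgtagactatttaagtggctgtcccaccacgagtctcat
Pvalb inner start, chr15:78204238-78204487, minus strand: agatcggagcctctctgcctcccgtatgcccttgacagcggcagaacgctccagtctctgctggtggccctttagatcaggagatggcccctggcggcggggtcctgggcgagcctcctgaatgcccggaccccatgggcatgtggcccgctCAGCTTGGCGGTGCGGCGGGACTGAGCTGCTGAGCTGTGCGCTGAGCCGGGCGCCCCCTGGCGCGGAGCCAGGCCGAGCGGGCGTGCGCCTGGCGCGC
The Jph2 stretch had 36 of its 194 bases under the peak and the Pvalb inner stretch 98 of 250. At Casq1 and Clcn1 none of the 250 bases before the start lay under a peak. The inner Pvalb stretch held 23 CpG dinucleotides, against 4 in the outer one, 4 in Jph2 and 3 each in Casq1 and Clcn1.

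The promoters of Casq1, Jph2 and Clcn1 were poorer in CpG than most promoters with a peak. Over whole promoters of 300 bases, 250 before and 50 after a start, observed over expected CpG was 0.118 at Clcn1, 0.148 at Casq1, 0.237 and 0.266 at the overlapping Jph2 entries and 0.732 at the inner Pvalb start. Among 1345 RefSeq promoters of protein-coding genes with a Ctrl PHF2 peak within 1 kb of the start, the median was 0.849 with quartiles of 0.707 and 0.966. The median over all 21263 promoters was 0.567. Only 38 of the 1345 (2.83%) were below 0.3, and 4 of those 38 were the entries of Clcn1, Casq1 and Jph2. The limit of 0.3 was chosen after these values were seen. RefSeq promoters were available for 30 of the 42 genes, with 39 entries. Not all genes with a peak are covered: Jph1 and Trdn had no entry, and the only Utrn entry lay more than 5 kb from both Utrn peaks. The entries of Dag1 (0.848 and 1.13) and Cacnb1 (0.843 and 0.114) count as without a peak, because the peaks of these genes lay beyond 1 kb of a start. Without a peak within 1 kb were 34 entries, at 0.0407 to 1.18, and 13 of them (38.2%) were below 0.3, against 33.9% of all promoters without a peak.

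**Figure D2:**
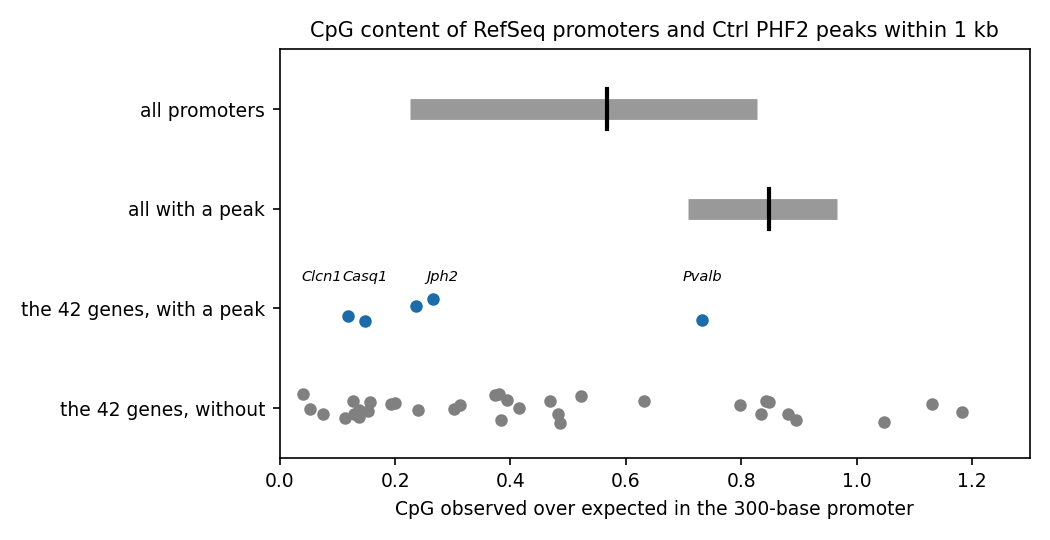
Observed over expected CpG in promoters of 300 bases. Grey bars span the quartiles and black lines mark the medians (0.567 over all promoters, 0.849 over those with a Ctrl PHF2 peak within 1 kb). Points are the 39 promoter entries of the 42 genes, of which 5 have a peak and 4 of these lie below 0.3, left of both medians. The 5 are entries of Casq1, Jph2, Clcn1 and Pvalb. Jph1, Trdn, Utrn, Dag1 and Cacnb1 have no entry within 1 kb of their peaks.

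To describe their letters, 3 motifs were searched on both strands of the same promoters: CANNTG (the E-box of myogenic factors), TGANTCA (an AP-1 type site) and CATTCC (the MCAT element read by TEAD factors); none contains another. All 5 entries with a peak held CANNTG, as did 69.0% of all promoters, 53.0% of those with a peak and 24 of the 34 entries of these genes without one. The 5 entries come from 4 genes, because the overlapping Jph2 entries, which share most of their bases, are counted apart. None of the 5 held TGANTCA or CATTCC, which 6.99% and 13.6% of all promoters hold. A match is a description of letters and not of a bound factor.

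At the junction, Utrn (Gene ID 22288, chromosome 10, 12382187 to 12869888, minus strand) encodes utrophin, the relative of dystrophin that is concentrated under the synapse. A peak at 12868941 to 12869456 had its summit 691 bp inside the start of the annotated gene, a fold of 7.31 and 14 tags (7.65 to 23.5). A second at 12868134 to 12868477 had a fold of 5.03 on 9 tags (4.12 to 17.1), the fewest of the 14 and fewer than the 10 of the weakest KO PHF2 peak. The other 7 junction genes had no peak. They were the acetylcholine receptor subunit genes Chrna1, Chrnb1, Chrnd, Chrne and Chrng, and Musk and Dok7, which encode the kinase that clusters the receptor and its activator. Chrnb1 was the gene without a peak that came nearest to one, at 17623 bp, followed by Chrne at 36125 bp.

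Within the dystrophin complex Dag1 alone had a peak. Dag1 (Gene ID 13138, chromosome 9, 108204861 to 108263977, minus strand) encodes dystroglycan, the laminin receptor at its centre. The peak at 108262299 to 108262654 had its summit 1520 bp inside the gene, a fold of 5.44 and 11 tags (5.49 to 19.7). The 15 without a peak included Dmd itself, the sarcoglycan genes Sgca, Sgcb and Sgcd, the partner genes Dtna and Sntb1, and Pomt1, Pomt2 and Pomgnt1, whose enzymes glycosylate dystroglycan. They also included the laminin and integrin genes Lama2, Itga7 and Itgb1 and the membrane and protease genes Cav3, Dysf (membrane repair) and Capn3. Capn3 was nearest to a Ctrl PHF2 peak, at 59067 bp, and Dmd was the farthest of all 42 genes, at 8917783 bp. After Dmd came Sntb1 at 1785981 bp and the sarcolipin gene Sln at 1681425 bp.

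The core release machinery also lacked a peak. No Ctrl PHF2 peak was called in the window of Ryr1, the ryanodine receptor gene, or of Cacna1s, the voltage sensor gene. The same held for the channel subunit gene Cacng1, the adaptor gene Stac3, the triad protein gene Jsrp1, the SERCA genes Atp2a1 and Atp2a2, the pump inhibitor gene Sln and Casq2. Among the membrane channels, the sodium channel gene Scn4a and the potassium channel gene Kcnj11 had none. The channel subunit gene Cacnb1 (Gene ID 12295, chromosome 11, 98001508 to 98023034, minus strand) counted only through a peak at 98026663 to 98027245, 3629 bp outside the gene, with a fold of 5.05 and 14 tags (7.65 to 23.5). Its nearest protein-coding gene was the ribosomal protein gene Rpl19. Without this peak 8 of the 42 genes remained. Cacnb1 was the only member that counted by its flank, and no other gene lay between 5 and 10 kb of a peak.

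**Figure D3:**
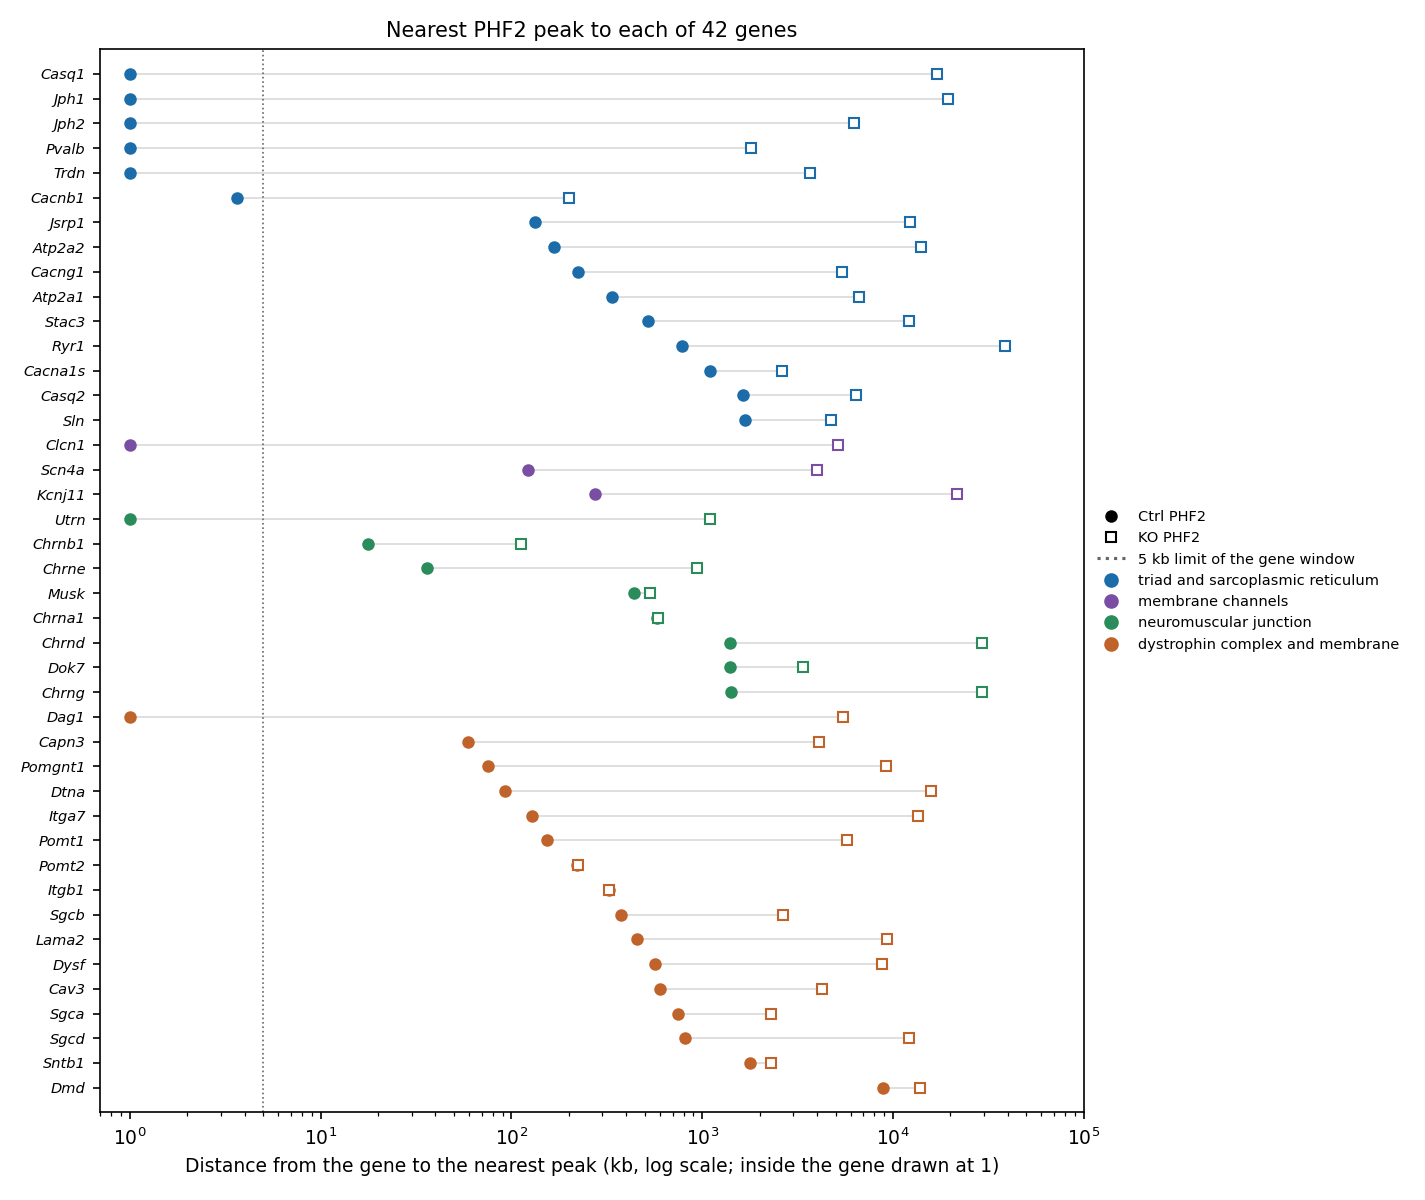
Distance in kb, on a log axis, from each of the 42 genes to the nearest Ctrl PHF2 peak (filled circles) and the nearest KO PHF2 peak (open squares), coloured by role. Genes with a peak inside are drawn at 1 kb; 9 circles and no square lie left of the dotted 5 kb limit.

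End and body were told apart by 1 kb around either gene end. Of the 14 peaks, 6 lay at an end (42.9%, Wilson interval 21.4 to 67.4), 7 elsewhere inside the gene and 1 in the flank. The 14 were placed against the member gene alone, so the Cacnb1 peak counts as flank although it lay in or within 1 kb of Rpl19. Over all Ctrl PHF2 peaks, placed against any protein-coding gene, 71.0% lay at an end and 25.3% elsewhere inside a gene. Ends are the outer ends of the annotated gene. The peaks of Pvalb and Clcn1, with summits 10 and 239 bp from a RefSeq start inside the gene, therefore count as elsewhere inside. The difference also rests on the limit of 1 kb. With 2 kb, 11 of the 14 peaks were at an end, against 80.6% of all Ctrl PHF2 peaks, the added ones being the peaks of Clcn1 and Dag1 and the second peaks of Jph2, Trdn and Utrn. By gene, 5 of the 42 (11.9%, 5.19 to 25.0) had a peak at an end, Casq1, Jph1, Jph2, Trdn and Utrn, against 5.6% of all protein-coding genes, which lies within the interval. Where RefSeq gives the strand, 3 of 30 members had a peak within 1 kb of the start of the gene and 0 within 1 kb of its far end. Over the 17492 protein-coding genes with a strand, 5.53% had one at the start and 0.229% at the far end.

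Most summits lay past the start. Of 8 member summits within 5 kb of a RefSeq start, 7 were downstream of it, with a median of 221.5 bp. In the whole list summits were measured to the nearest RefSeq start of any gene. Of 1268 within 5 kb of one, 76.7% were downstream. The median over all 1268 was 239.5 bp, with quartiles of 29.5 and 518 bp.

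Peaks at these genes were neither tall nor wide for the list. The 14 peaks had fold enrichments of 4.01 to 7.41 with a median of 5.76, against 6.37 over all 1621, and 4 of 14 were above that list median. Their widths ran from 292 to 1419 bp with a median of 397.5 bp, against 505 bp. Their summit tags ran from 9 to 26 with a median of 14, against 15. Peaks within 1 gene are not independent, and merging those within 1 kb left 10. Among the 161 Ctrl PHF2 peaks of highest fold none lay at any of the 42 genes, and among the stronger 50% of the list 4 of the 42 genes kept a peak.

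**Figure D4:**
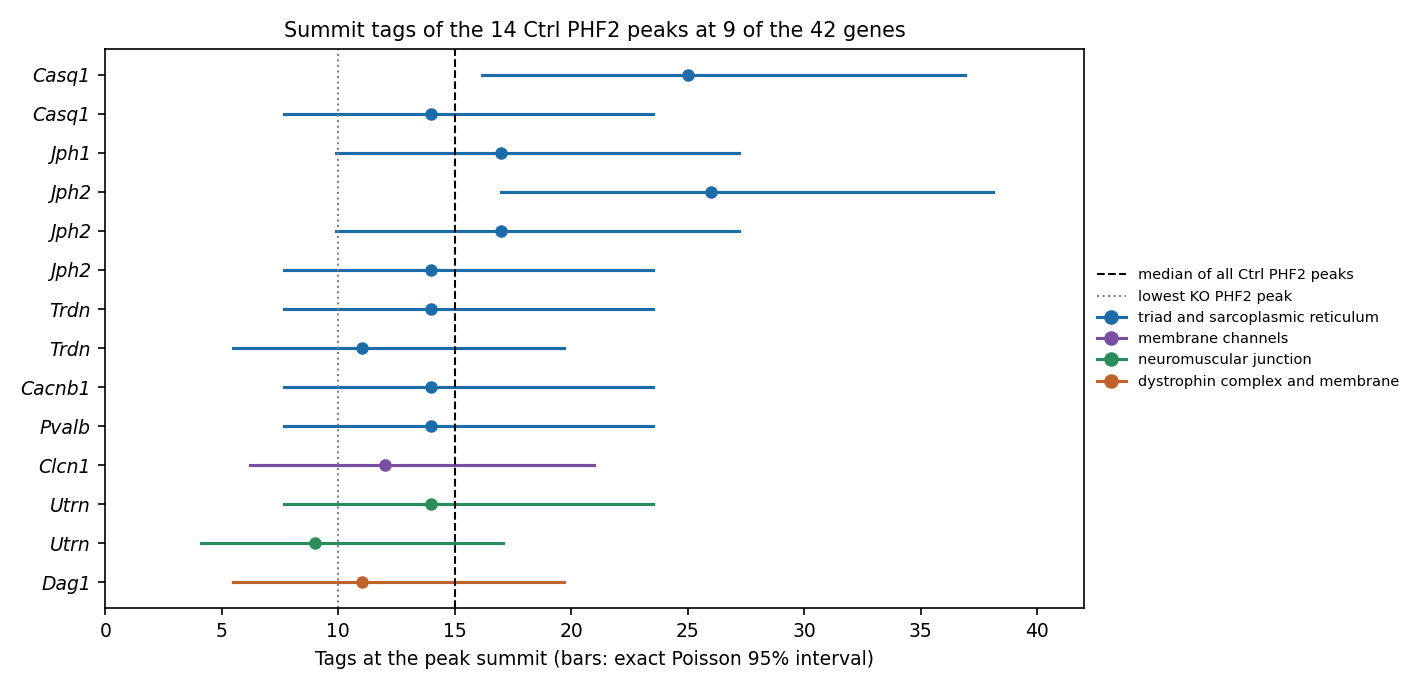
Tags at the summit of each of the 14 Ctrl PHF2 peaks (points), with exact Poisson 95% intervals (bars), coloured by role. The dashed line is the median of all Ctrl PHF2 peaks (15 tags) and the dotted line the lowest KO PHF2 peak (10 tags); the first peaks of Casq1 (25) and Jph2 (26) lie above the median with intervals that exclude it, and all other intervals include it.

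Longer genes had a Ctrl PHF2 peak more often. Members with a peak had a median length of 59117 bp, members without one 24866 bp, and all protein-coding genes 17169 bp. Genes were split into 5 length classes of equal size. In the longest class (57148 bp and more) 5 of 15 members had a Ctrl PHF2 peak, against 15.4% of all genes of that class. In the other classes, from short to long, the members had 0 of 2, 1 of 7, 2 of 10 and 1 of 8, against 2.76%, 5.30%, 5.60% and 7.84%. The share of all genes with a peak at an end, where the window has a fixed size, also rose with length, from 2.40% through 3.91%, 4.02% and 6.12% to 11.5%, and 4 of the 15 members of the longest class had one. Weighting all genes to the lengths of the 42 raised the background from 7.38% to 9.34%, and at gene ends from 5.6% to 7.01%.

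**Figure D5:**
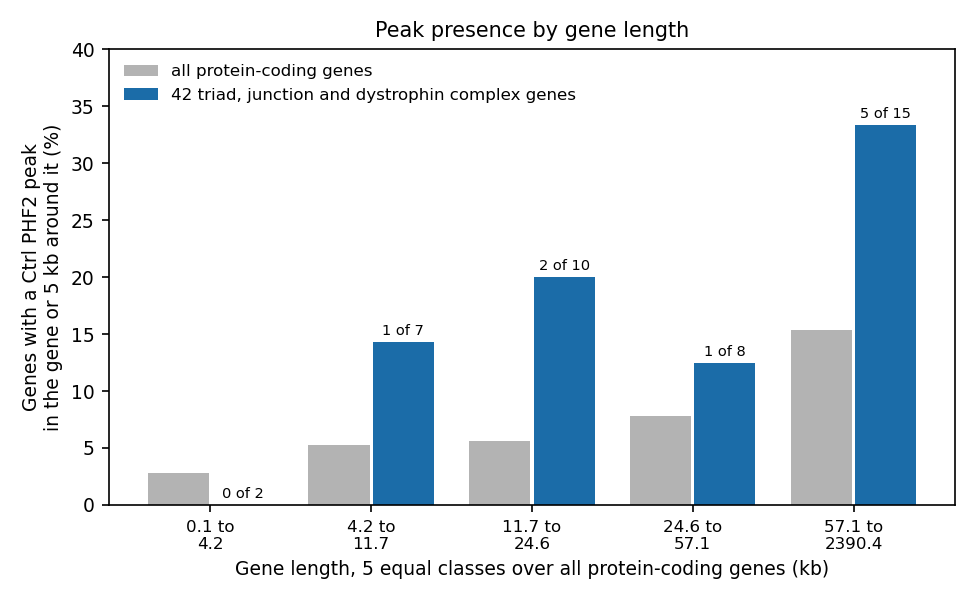
Share of genes (%) with a Ctrl PHF2 peak in the gene or 5 kb around it, by 5 classes of gene length with equal numbers of protein-coding genes, for all genes (grey) and for the 42 genes (blue, with counts). The share over all genes rises from 2.76% to 15.4% with length, and 5 of the 9 members with a peak are in the longest class.

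The KO PHF2 list was set beside the Ctrl list for presence only. The count of 0 of 42 genes with a KO PHF2 peak allows up to 7.14% of such genes. Of all protein-coding genes 0.713% had one in the window and 0.484% at an end, so an absence particular to these genes was not detectable. None of the 14 Ctrl peaks overlapped a KO PHF2 peak, which allows up to 21.4%, while 7.03% of all Ctrl PHF2 peaks did. Among the 1551 Ctrl peaks with 9 to 26 tags, the range of the 14, 5.48% did. The KO peak nearest to any of the 14 was 226622 bp away, near Cacnb1, and the median distance was 5355491 bp. Of the 14 Ctrl peaks 13 had at least the 10 tags of the weakest KO PHF2 peak, and 11 reached its -log10 p of 6.19. The 3 that did not were at Jph1, Jph2 and Utrn. The lists give no KO tag number for these sites, so a Ctrl peak with no KO peak shows no size of change.

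IgG gave no peak at these genes. In the Ctrl IgG list 0 of 42 had one, against 0.064% of all protein-coding genes, and in the KO IgG list 0 of 42, against 0.155%; either count allows up to 7.14%. Both PHF2 lists have values of the form that calling against a control gives, and such calling can remove regions that are high in the control, so the absence of IgG peaks does not measure specificity.

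The same functions were also read from 69 further genes, named from textbook roles with earlier results of these data known. Their counts are descriptions and were not weighted for gene length. Of these 13 (18.8%, Wilson interval 11.4 to 29.6) had a Ctrl PHF2 peak in the window, against 7.38% of all protein-coding genes, and 11 (15.9%, 9.14 to 26.3) had one at an end, against 5.6%. Highest in fold was Cacna2d1, a subunit gene of the same calcium channel as Cacnb1, at 9.32 with 18 tags (exact Poisson interval 10.7 to 28.4). Next were the talin gene Tln2 (8.83), the inward rectifier gene Kcnj2 (8.29) and Tmem38a (8.18), which encodes a potassium channel of the reticulum. The peak at Tmem38a also lay within 1 kb of its neighbour Smim7. The sodium-calcium exchanger gene Slc8a3 had 7.41 and the laminin gene Lamc1 5.99. The agrin gene Agrn, the calcium pump gene Atp2b1 and Gabpa were lower at an end, and Bin1 and Srl had a peak elsewhere inside the gene. These 5 were named after their values were seen. The peak at Gabpa also lay within 1 kb of its neighbour Atp5j. None of the 69 had a KO PHF2, Ctrl IgG or KO IgG peak, where 0.713%, 0.064% and 0.155% of all protein-coding genes had one. Each count of 0 allows up to 4.35%, so an absence particular to these genes was not detectable. In this wider list 13 of 15 peaks lay within 1 kb of a gene end, where 71.0% of all Ctrl PHF2 peaks lay.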

How the data were processed

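Titles gave the groups. The submitters' processing notes name Bowtie2, MACS2 and mm10. The sources used here do not give versions, settings, duplicate handling or the control library. The deposited lists have 10 columns with no header, and peak names carry 1 library each. The authors' fold enrichment is a ratio over the local background, the deposited -log10 p and -log10 q refer to that background, and the deposited score is 10 times the -log10 q without decimals. They served to describe and rank peaks within a list.

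In MACS2 the fold equals pileup plus 1 over background plus 1, while p is a Poisson upper tail, which allows both unknowns to be solved. Pileups were whole tags, within 0.005, times 0.649 in Ctrl PHF2 (all 309 pairs of values) and 0.609 in KO PHF2 (all 84). Other factors gave at most 48.5% and 59.5%. On simulated Ctrl PHF2 peaks (504) 100% of tags were recovered. Precision is set by the 9 to 26 tags of a peak, which may include PCR duplicates.

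Starts were written 1-based. Genes and promoters came from RefSeq tables of GRCm38.p6, which hold no exons. No set test or random list was used. The members and gene lists were chosen with earlier results of these data known. Named were all members with a peak, the 3 nearest and 3 farthest of the others by distance, and up to 8 further pathway genes with a peak at an end, by fold. Some of these last are not reported here. Wilson 95% intervals accompany shares, and the limit of 3 counts accompanies counts of 0. Alternatives changed the window, the overlap, the threshold and the list length. Software was SciPy 1.17.1 and NumPy 2.4.6 under Python 3.11.15, with matplotlib 3.10.9 for figures and pandas 2.3.3 for tables. Reads were not analysed here.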

Additional observations from a re-analysis of the deposited data

How the results depend on the processing

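No paired analysis was possible because there was 1 library in a group, which also left no library that could be dropped. Over 6 counts, 36 alternatives were run, of which 32 stayed within 1.5 times the reported count and 4 did not. The number of the 42 genes with a Ctrl PHF2 peak, 9 as reported, was 4 with the stronger 50% of the list and 0 with the Ctrl list limited to as many peaks as the KO list. Those with a peak at a gene end, 5 as reported, were 2 with the stronger 50%. Peaks at a gene end, 6 as reported, were 11 with an end window of 2 kb. Counts of 0 for KO PHF2 peaks, IgG peaks and shared peaks stayed at 0 under every alternative run. Of these, only the flank of 10 kb and the gaps of 1 kb and 5 kb between peaks could have raised a 0. The rest narrowed the window, the overlap or the list. A 0 could not change under them, although they are among the 32. The common p threshold, which left 8 genes with a peak and 4 with one at an end, and CpG limits of 0.2 and 0.4 in place of 0.3, which left 2 and 3 of the genes, were chosen after seeing the data. Read totals are unknown, and how the counts move with depth was not tested.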

Other observations

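CpG-poor starts with a Ctrl PHF2 peak were few in the whole list. The limit of 0.3 for observed over expected CpG and the genes below were chosen after their values were seen. No test was run and no share of muscle genes among CpG-poor promoters was computed, so the names are a description. Of 6798 RefSeq promoters below 0.3, 38 (0.559%) had a Ctrl PHF2 peak within 1 kb, against 1307 of 14465 (9.04%) at or above it. For 25 of the 38, from 24 genes, no start of the RefSeq promoter set at or above 0.3 lay within 1 kb of the same peak. That set covers 17492 of the 21887 protein-coding genes, and starts missing from it were not seen. Beside Casq1, Jph2 and Clcn1, those 24 held the sarcomere genes Myom1 (M-band, fold enrichment 5.66), Mybph (a myosin-binding protein, 7.47), Obsl1 (obscurin-like 1, 7.89) and Tmod4 (a thin-filament capping protein of muscle, 5.05). Others were the glycolysis and glycogen genes Pgam2 (10.02), Pygm (muscle glycogen phosphorylase, 5.98) and Ppp1r3a (a glycogen-targeting phosphatase subunit, 6.67), the adenylate kinase gene Ak1 (5.38), and the ubiquitin ligase genes Trim63 (7.41) and Klhl31 (7.89, a Kelch protein of muscle). The other 11 were Pde4b (13.8), Wnk2 (10.9), Cpeb3 and Lpar6 (6.94 each), Maml2 (6.34), Erg (5.98), Sec62 (5.70), Ctnnd1 (5.50), Arhgap29 (5.32), and Ksr1 and Gm5785 (4.40 each). With a limit of 0.2 the count was 20 promoters and with 0.4 it was 61.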
